A study of Mus musculus with 28 samples.

Results

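The 9 genes described here are Gpr34, Tmem119, Siglech, Cx3cr1, Fcrls, Olfml3, Sparc, Selplg and Crybb1. They were taken by symbol from a table of 40021 mouse genes because they belong to a signature of homeostatic microglia. That signature is made up mostly of surface and secreted proteins (Crybb1, a crystallin, is neither). No rule on measured values picked the 9 genes, but they were chosen with earlier results of these data known. Each symbol was present once, and all 9 were among the 13164 genes tested, for which 5 or more of 28 retinas had to reach an RPKM of 1. RPKM scales the reads of a gene by the length of its transcripts and by the depth of the library.

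Microglia are the resident macrophages of the brain and retina, and in healthy tissue they carry a set of transcripts that other macrophages have at low levels or lack. Part of that set encodes receptors by which the cells sense their surroundings, such as purines, lipids, chemokines and sialic acids, and part encodes secreted proteins. Inflammatory stimuli such as lipopolysaccharide (LPS), a bacterial cell wall component sensed by toll-like receptor 4, are known to lower several of these transcripts.

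All retinas came from male heterozygous Cx3cr1CreER:R26-tdTomato mice on a C57BL/6 background, naïve ones included. In this line a tamoxifen-inducible Cre recombinase is expressed from the locus of Cx3cr1, itself one of the 9 genes, and switches on the red fluorescent protein tdTomato. Tamoxifen was given topically before the experiment, and live cells with high tdTomato were sorted from single retinas for mRNA-Seq. Endotoxin-induced uveitis (EIU), a model of acute and self-resolving inflammation of the eye, was induced by an intravitreal injection of LPS. Of the retinas, 10 were naïve, and 6 were taken 4 h, 5 were taken 18 h and 7 were taken 2 weeks after the injection. Experiment 1 held 6, 3, 4 and 4 of these, and experiment 2 held 4, 3, 1 and 3. The labels name no eyes injected without LPS, so that effects of the injection and of LPS cannot be told apart, and they do not say which retinas shared a mouse, so that p-values measure the spread between retinas.

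The table listed from 7510000 to 19700000 alignments per retina, and between 6552 and 11825 genes reached an RPKM of 1. The retinas with fewer than 7500 such genes were naïve replicates 3 and 4, 18 h replicate 4 and 2-week replicate 1. The summed level of 12 genes of microglial and macrophage identity ranged from 9422 to 28485 RPKM, and none of the 12 was missing from the genes tested. In pooled cells of this kind, fewer cells expressing a gene and less RNA per cell cannot be told apart.

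RefSeq promoter sequences (GRCm38.p6, 250 bases before to 50 after the start site) were at hand for 6 of the 9 genes, namely Fcrls, Olfml3, Crybb1, Siglech, Cx3cr1 and Sparc. Siglech and Fcrls are shown because both fell at 18 h, and Cx3cr1 because it fell at 4 h and had returned towards naïve levels by 18 h. Capitals mark GAGGAA, the core of the site bound by PU.1, the lineage factor of macrophages and microglia, on either strand.
Siglech, chr7:55767934-55768233, plus strand: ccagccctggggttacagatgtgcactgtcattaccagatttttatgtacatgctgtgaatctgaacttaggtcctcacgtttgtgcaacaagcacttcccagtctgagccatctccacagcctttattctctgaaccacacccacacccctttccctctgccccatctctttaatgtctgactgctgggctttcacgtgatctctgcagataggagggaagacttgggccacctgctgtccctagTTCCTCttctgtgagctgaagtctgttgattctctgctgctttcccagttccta
Fcrls, chr3:87263475-87263774, minus strand: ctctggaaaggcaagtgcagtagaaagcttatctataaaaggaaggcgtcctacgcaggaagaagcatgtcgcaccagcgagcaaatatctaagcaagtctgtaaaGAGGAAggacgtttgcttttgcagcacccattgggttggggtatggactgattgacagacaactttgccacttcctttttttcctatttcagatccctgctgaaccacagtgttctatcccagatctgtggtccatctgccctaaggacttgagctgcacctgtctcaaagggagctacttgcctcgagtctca
Cx3cr1, chr9:120068247-120068546, minus strand: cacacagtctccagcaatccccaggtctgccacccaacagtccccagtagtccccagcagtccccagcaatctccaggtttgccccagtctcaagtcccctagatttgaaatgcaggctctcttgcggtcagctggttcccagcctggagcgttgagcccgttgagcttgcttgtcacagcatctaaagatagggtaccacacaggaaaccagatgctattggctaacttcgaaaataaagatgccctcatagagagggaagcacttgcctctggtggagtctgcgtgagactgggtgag
GAGGAA was found in 2 of the 6 promoters, those of Siglech and Fcrls, and in 28.3% of 32851 promoters of the same length. TGAGTCA, the site of AP-1 factors, was in 0 of the 6 and in 5.2% of all promoters. These matches describe the letters of each window and say nothing of binding.

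In naïve retinas the 9 genes spanned a wide range of levels per length. Ranked by their median among the genes tested, Gpr34 stood at place 20, Selplg at 61, Siglech at 213, Sparc at 271, Tmem119 at 356, Olfml3 at 575, Cx3cr1 at 653, Fcrls at 735 and Crybb1 at 981. Ranges over naïve retinas overlapped between all neighbours in this order, and for Gpr34 and Selplg they did so through replicate 1 alone. The summed level of the 9 genes had a median of 3018 RPKM in naïve retinas. It was 1114 after 4 h, 499 after 18 h and 2887 after 2 weeks. Gpr34 made up a median of 60.0% of that sum in naïve retinas, against 17.9%, 20.4% and 49.8% at the later times.

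**Figure D1:**
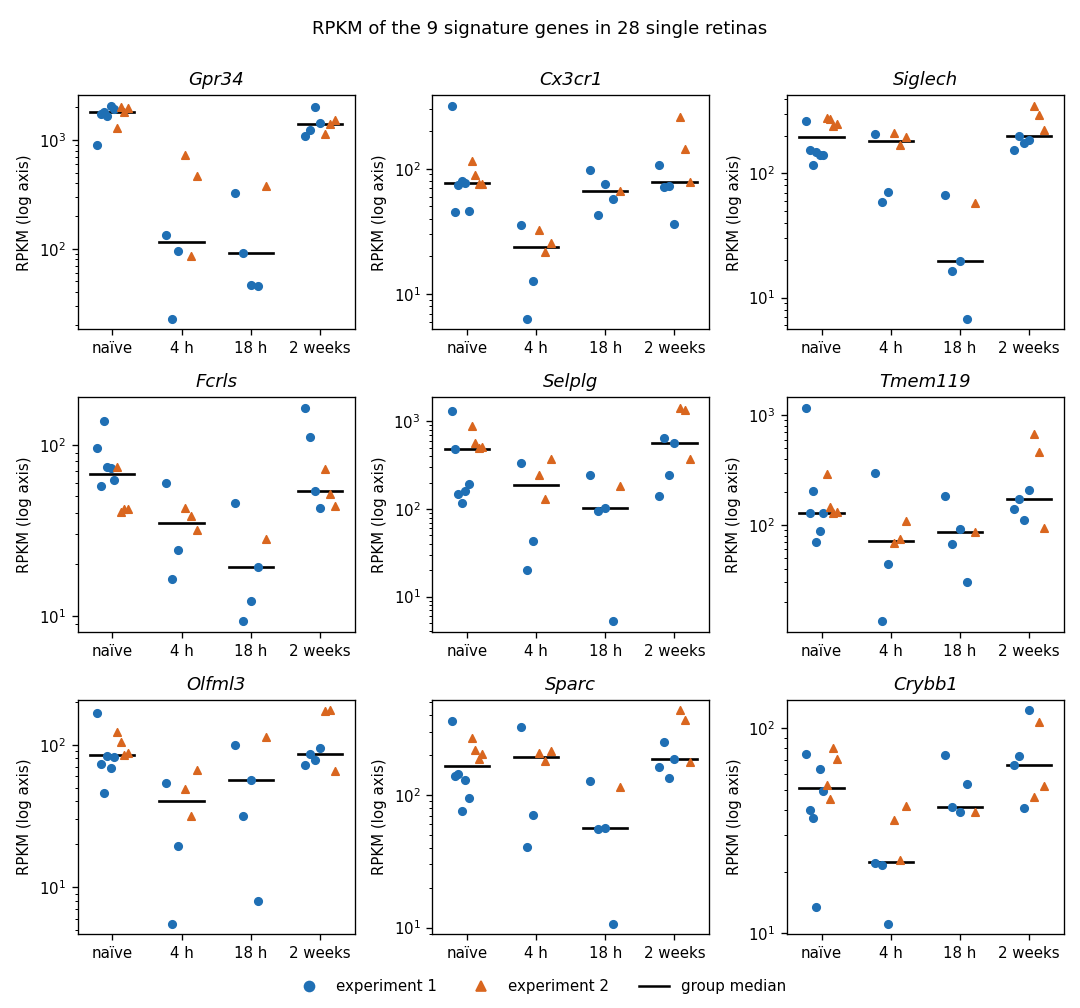
RPKM on a log axis of each of the 9 genes in every retina by group, in order of time, with circles for experiment 1, triangles for experiment 2 and a bar at the group median. Gpr34 is below the naïve range in all 6 retinas at 4 h and all 5 at 18 h, Cx3cr1 in all 6 at 4 h, and Siglech in all 5 at 18 h.

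Loss followed different courses in different genes. A gene was called changed where the adjusted p was at most 0.05 over all genes tested and the fold change was at least 2. At 4 h, 3 of the 9 genes were called lower (Gpr34, Cx3cr1 and Olfml3), where 4.39% of all genes tested were called lower. At 18 h, 3 of the 9 were called lower (Gpr34, Siglech and Fcrls), against 1.85% of all genes. No gene of the 9 was called higher at either time. The fitted log2 fold changes were below 0 for all 9 genes at both times, with a median of -1.29 at 4 h and -1.56 at 18 h, beside medians over all genes of -0.11 and -0.08. Unadjusted p was under 0.05 for 7 of the 9 genes at 4 h and for 5 at 18 h, beside 20.5% and 17.5% of all genes tested. Every retina was below every naïve retina for Gpr34 and Cx3cr1 at 4 h, as for 1.42% of all genes, and for Gpr34 and Siglech at 18 h, as for 1.3% of all genes.

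Gpr34 (ENSMUSG00000040229.11, chrX:13632089-13640858, plus strand, GRCm38) encodes a G protein-coupled receptor for lysophosphatidylserine. Its naïve level was 1727 ± 367 RPKM (SD, n = 10), with a lowest retina of 902, a median of 1816 and a highest of 2079.9. At 4 h the lowest, median and highest retinas were at 22.6, 115 and 723 RPKM. The groups did not overlap, and the highest 4 h values, 723 and 469.6 RPKM, were both of experiment 2. The fall at 4 h was 11.6-fold on the log2(RPKM + 1) scale (log2 fold change -3.54, SE 0.50, limma adjusted p = 6.2e-06). At 18 h the 5 retinas had 325, 91.6, 46.0, 45.6 and 377 RPKM, again all below the naïve range. The fall was 14.0-fold (log2 -3.81, SE 0.53, adjusted p = 1.7e-05), and between 4 h and 18 h the difference of -0.27 did not pass the test (95% confidence interval -1.47 to 0.93). At 2 weeks the lowest, median and highest retinas were at 1103, 1397 and 2025 RPKM, and all 7 were within the naïve range. The level was called higher at 2 weeks than at 4 h by 3.26 and than at 18 h by 3.53 on the log2 scale.

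Cx3cr1 (ENSMUSG00000052336.7, chr9:119901616-120069879, minus strand) encodes the receptor of fractalkine, a chemokine presented by neurons. Naïve retinas had a lowest value of 45.2, a median of 76.2 and a highest of 318 RPKM. The highest was naïve replicate 1, and the other 9 naïve retinas did not exceed 115 RPKM. At 4 h the retinas lay between 6.37 and 35.5 RPKM with a median of 23.6, all below the naïve range. This was a 4.15-fold fall (log2 -2.05, SE 0.40, adjusted p = 0.00069). After 18 h the retinas were at 98.2, 43.0, 74.8, 57.2 and 65.9 RPKM. Of these, 4 were within the naïve range, and the difference from naïve was -0.36 (95% confidence interval -1.23 to 0.51, adjusted p = 0.73). The rise from 4 h to 18 h passed the test (log2 1.69, SE 0.47, adjusted p = 0.027). That call was lost, with adjusted p up to 0.087, in 5 of the 28 fits that left out 1 retina, namely 4 h replicates 2 and 3 and 18 h replicates 1, 3 and 5, and also without the filter, after rescaling or quantile normalisation, on untransformed RPKM and in either experiment alone, of which experiment 2 held 1 retina at 18 h. At 2 weeks the lowest, median and highest values were 36.3, 77.7 and 259 RPKM, and 6 of 7 retinas were within the naïve range. On untransformed RPKM the fall at 4 h did not pass the test (adjusted p = 0.15).

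Siglech (ENSMUSG00000051504.18, chr7:55768178-55778925, plus strand) encodes a receptor of the Siglec family of lectins that signals through the adaptor Tyrobp. Its naïve retinas ranged from 117 to 278 RPKM with a median of 197. At 4 h they ranged from 58.8 to 211 with a median of 182, and 4 of 6 retinas were within the naïve range. The 4 h difference of -0.50 did not pass the test (95% confidence interval -1.28 to 0.28, adjusted p = 0.51). At 18 h the values were 67.2, 16.4, 19.6, 6.74 and 57.3 RPKM, all below every naïve retina. The fall was 7.50-fold (log2 -2.91, SE 0.41, adjusted p = 1.7e-05), and the level at 18 h was also lower than at 4 h (log2 -2.41, SE 0.45, adjusted p = 0.00066). All 28 fits that left out 1 retina kept both calls, and in experiment 1 alone the second was lost (adjusted p = 0.080). By 2 weeks they ranged from 154 to 351 RPKM with a median of 201, and 2 of them were above all naïve retinas. The level at 2 weeks was 8.57-fold above that at 18 h (log2 3.10, SE 0.43, adjusted p = 2.6e-05).

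Fcrls (ENSMUSG00000015852.13, chr3:87250758-87263738, minus strand) encodes a scavenger receptor related to the Fc receptors. Naïve retinas ranged from 40.4 to 137 RPKM with a median of 68.0, and 4 h retinas from 16.5 to 60.2 with a median of 35.1. At 4 h, 4 of 6 retinas were below all naïve ones, but the difference of -0.96 did not pass the test (SE 0.36, adjusted p = 0.11). Retinas at 18 h had 45.7, 9.31, 12.3, 19.3 and 28.0 RPKM, and 4 of 5 were below the naïve range. The fall was 3.20-fold (log2 -1.68, SE 0.38, adjusted p = 0.0067), and all 28 fits without 1 retina kept it, while it was lost on untransformed RPKM (adjusted p = 0.089). Retinas at 2 weeks ranged from 42.6 to 164 RPKM with a median of 54.0. The highest, replicate 1, was above every naïve retina, and none was below. The rise between 18 h and 2 weeks passed the test (log2 1.75, SE 0.41, adjusted p = 0.013). It was lost without 18 h replicate 2 (adjusted p = 0.074) and without 18 h replicate 3 (adjusted p = 0.060), and also on untransformed RPKM (adjusted p = 0.079), with only the groups compared (adjusted p = 0.061) and in either experiment alone, of which experiment 2 held a single 18 h retina.

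Selplg (ENSMUSG00000048163.13, chr5:113818536-113832644, minus strand) encodes PSGL-1, a glycoprotein ligand of selectins. Naïve retinas ranged from 116 to 1312 RPKM with a median of 487. Naïve replicates 3 to 6, all of experiment 1, had 150, 116, 161 and 194 RPKM, and every other naïve retina had 478.5 or more. The same replicates had the lowest sums of the 12 identity genes among naïve retinas, 9667 to 13223 RPKM, where the others had 19586.6 or more. They also had the fewest genes at an RPKM of 1, 6552 to 8562, where the others had 10358 or more. Retinas at 4 h ranged from 20.1 to 368 RPKM with a median of 187. The groups overlapped, and the 4 h difference of -1.57 did not pass the test (SE 0.70, adjusted p = 0.19). The 5 retinas at 18 h had 245, 94.0, 101, 5.24 and 184 RPKM. The lowest, replicate 4, was far below the others, and the difference of -2.25 missed the threshold (SE 0.74, adjusted p = 0.079). At 2 weeks the values spanned 141 to 1423 RPKM around a median of 571, and 2 retinas were above all naïve ones. The rise from 18 h of 2.72 missed the threshold as well (SE 0.80, adjusted p = 0.060). Without 18 h replicate 4 that rise was 1.82 and the difference from naïve at 18 h was -1.34. The rise from 18 h to 2 weeks passed in 4 of the 28 fits without 1 retina (3.14 without 18 h replicate 1) and under 5 other alternatives, and the 18 h difference passed under 2, rescaling (adjusted p = 0.044) and removal of the GC and length trend (adjusted p = 0.029).

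Tmem119 (ENSMUSG00000054675.5, chr5:113793729-113800516, minus strand) encodes a single-pass membrane protein widely used as a microglial marker. It lies 18019 bases from Selplg on the same strand. Naïve retinas ranged from 70.5 to 1167 RPKM with a median of 130.0, and the second highest was at 293. The highest was replicate 1, the retina that also stood apart for Cx3cr1 and was the highest naïve retina for Selplg. At 4 h the values ranged from 13.3 to 296 RPKM with a median of 71.4, and at 18 h they were 183, 67.5, 92.2, 29.9 and 85.9 RPKM. Both groups overlapped with naïve retinas, with 3 of 6 and 2 of 5 retinas below them. Neither the 4 h difference of -1.29 (SE 0.56, adjusted p = 0.17) nor the 18 h difference of -1.09 (SE 0.59, adjusted p = 0.35) passed the test, but the first passed once trends with GC content and transcript length were removed (-1.51, adjusted p = 0.0086). After 2 weeks the range was 93.9 to 678 RPKM with a median of 172, all within the naïve range.

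Olfml3 (ENSMUSG00000027848.12, chr3:103722222-103738001, minus strand) encodes a secreted protein with an olfactomedin domain. Naïve retinas ranged from 45.9 to 167 RPKM with a median of 84.1, and 4 h retinas from 5.53 to 66.1 with a median of 39.9. At 4 h, 3 of 6 retinas were below the naïve range, and the fall was 2.90-fold (log2 -1.54, SE 0.46, adjusted p = 0.032). The call was lost without naïve replicate 1 (adjusted p = 0.050) and without 4 h replicates 2, 3 and 5 (adjusted p up to 0.14), and also without the filter, with the replicate block, on untransformed RPKM and in either experiment alone. At 18 h the retinas had 100.1, 31.3, 56.4, 8.04 and 114 RPKM, of which 2 were below the naïve range. The 18 h difference of -0.96 did not pass the test (SE 0.49, adjusted p = 0.32), and without 18 h replicate 4 it was -0.37. At 2 weeks the retinas ranged from 65.7 to 174 RPKM with a median of 85.9, and 2 were above all naïve retinas. The rise from 4 h to 2 weeks was called (log2 1.71, adjusted p = 0.033), but was lost in 5 of the 28 fits without 1 retina, those without 4 h replicates 2, 3 and 5 and 2-week replicates 5 and 6, and also without the filter (adjusted p = 0.10), with the replicate block (adjusted p = 0.053) and in experiment 1 alone (adjusted p = 0.19).

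Sparc (ENSMUSG00000018593.13, chr11:55394500-55423183, minus strand) encodes a secreted glycoprotein of the extracellular matrix. Naïve retinas ranged from 76.0 to 364 RPKM with a median of 165, and 4 h retinas from 40.8 to 325 with a median of 194. The 4 h difference of -0.23 did not pass the test (95% confidence interval -1.16 to 0.69, adjusted p = 0.83). At 18 h the retinas had 129, 55.1, 56.8, 10.7 and 114 RPKM, with 3 of 5 below the naïve range. The 18 h difference of -1.56 was just short of the threshold (SE 0.48, adjusted p = 0.057), and it passed under 5 of the alternatives, among them rescaling (adjusted p = 0.023) and the eye side as a covariate (adjusted p = 0.038). At 2 weeks, after a rise from 18 h, the retinas ranged from 134 to 435 RPKM with a median of 188. The rise was 4.01-fold (log2 2.00, SE 0.52, adjusted p = 0.027), but it was lost in 5 of the 28 fits without 1 retina, namely 18 h replicates 2, 3 and 4 and 2-week replicates 5 and 6 (adjusted p up to 0.12), and under 7 other alternatives. Among these was experiment 2 alone, which held 1 retina at 18 h. Sparc is also a product of vascular cells. Of 15 endothelial and mural genes, 10 were under an RPKM of 1 in all 28 retinas, and their summed level ranged from 0.19 to 5.02 RPKM over all retinas.

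Crybb1 (ENSMUSG00000029343.17, chr5:112255815-112269585, plus strand) encodes a beta crystallin, a structural protein of the lens that microglia also transcribe. Naïve retinas ranged from 13.5 to 79.8 RPKM with a median of 51.1, and 4 h retinas from 11.1 to 41.6 with a median of 22.3. Of the 4 h retinas 1 was below the naïve range, and the difference of -0.98 missed both limits of a call (SE 0.34, adjusted p = 0.074). Without naïve replicate 4, the lowest naïve retina, it was -1.18 and passed (adjusted p = 0.0095). At 18 h the retinas had 74.2, 41.2, 39.3, 53.6 and 39.0 RPKM, all within the naïve range. The 18 h difference was -0.0033 (95% confidence interval -0.75 to 0.74, adjusted p = 1.00). At 2 weeks the values ranged from 40.8 to 122 RPKM with a median of 65.9, and the rise from 4 h was called (log2 1.46, SE 0.37, adjusted p = 0.012), though not in either experiment alone (adjusted p = 0.087 and 0.097).

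Lens genes were read beside Crybb1 because the lens was removed at dissection. The summed level of 13 lens genes ranged from 5.43 to 224 RPKM in naïve retinas, 15.5 to 241 at 4 h, 92.5 to 221 at 18 h and 67.5 to 241 at 2 weeks. Of the 13 genes, 3 were under an RPKM of 1 in every retina. Of the 9 lens genes tested, 0 were called against naïve at any time. Cryba4, a lens crystallin gene 3296 bases from Crybb1 on the opposite strand and named after its values were seen, had a median of 40.2 RPKM in naïve retinas, and medians of 15.5, 51.7 and 41.5 at the successive times after injection. Its difference of -1.15 at 4 h did not pass the test (adjusted p = 0.15), and its rise from 4 h to 2 weeks was called (log2 1.66, adjusted p = 0.049). The part of lens RNA in the Crybb1 values was not tested.

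**Figure D2:**
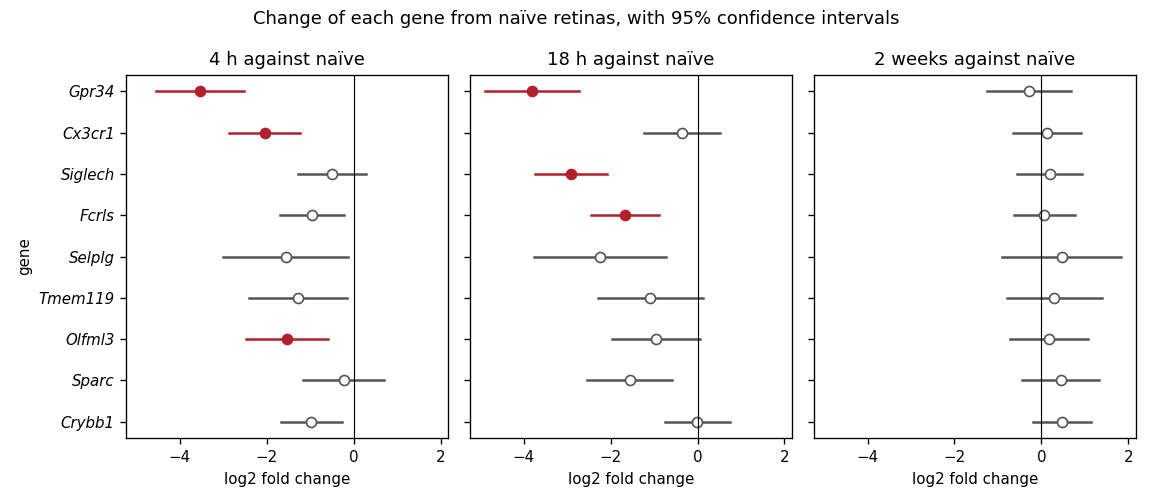
Fitted log2 fold change of each gene against naïve retinas at each time after injection, with bars for the 95% confidence interval and filled red points for called genes. Gpr34, Cx3cr1 and Olfml3 are filled at 4 h, Gpr34, Siglech and Fcrls at 18 h, and none at 2 weeks, where every interval includes 0.

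The courses of the genes between the 2 inflamed times were compared directly. Siglech and Cx3cr1 differed between 18 h and 4 h, in opposite directions, which made 2 of 9 genes called, against 5.42% of all genes tested called in either direction. Sparc was lower at 18 h by 1.33 and Crybb1 higher by 0.98 on the log2 scale, with unadjusted p of 0.019 and 0.021 and adjusted p of 0.17 and 0.19. The differences of the other 5 genes ranged from -0.72 for Fcrls to 0.58 for Olfml3, and their intervals included 0.

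By 2 weeks none of the 9 genes differed from naïve retinas by the test, where 0.0076% of all genes tested were called. Unadjusted p was under 0.05 for 0 of the 9 genes and for 378 of the 13164 genes tested. The differences ranged from -0.28 for Gpr34 to 0.48 for Crybb1. Of the 9, 8 were above 0, as were 7554 of the 13164 genes tested. The 95% confidence intervals extended from -1.26 at the lowest to 1.84 at the highest, and for 3 of the 9 genes they lay within 1 log2 unit of 0 on both sides. For the other 6 genes a change of 2-fold in at least 1 direction was within the interval. Of the retinas at 2 weeks, none was below all naïve retinas in any gene except replicate 4 for Cx3cr1. All 9 genes were higher at 2 weeks than at 4 h, as were 8316 of the 13164 genes tested. Of the 9, 4 were called (Gpr34, Cx3cr1, Olfml3 and Crybb1), against 3.18% of all genes called higher. All 9 were also higher at 2 weeks than at 18 h, as were 7908 of the genes tested. Here 4 were called (Gpr34, Siglech, Fcrls and Sparc), against 1.1% of all genes called higher.

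**Figure D3:**
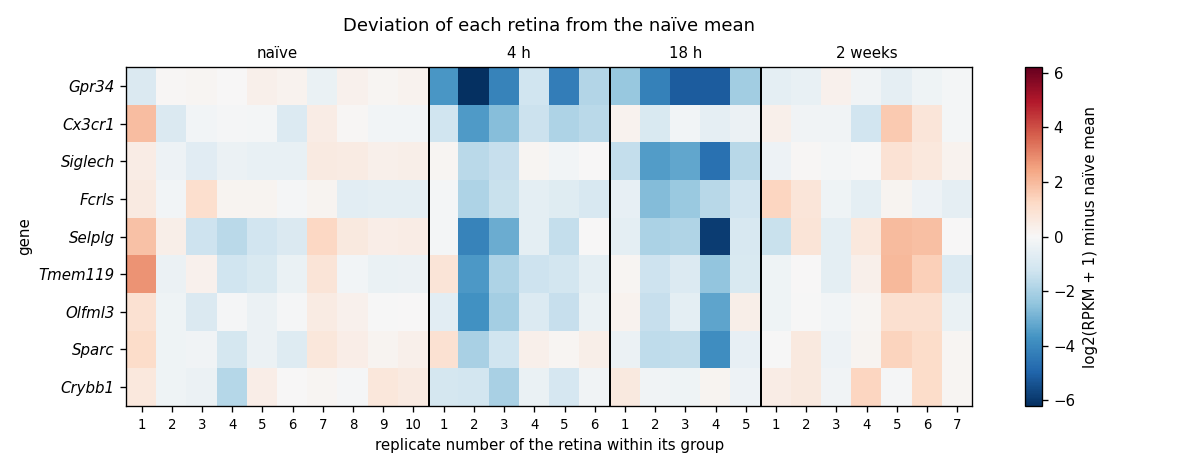
Colour map of log2(RPKM + 1) minus the naïve mean for the 9 genes (rows) in each of the 28 retinas (columns, by group and replicate number), blue below and red above the naïve mean. Deviations run from -6.15 to 2.79. Every 4 h retina is below the naïve mean in 6 or more genes and every 18 h retina in 5 or more. Replicates 2 and 3 of both groups are below it in all 9. Among the retinas that are red in most genes are naïve replicate 1 and 2-week replicates 5 and 6.

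Retinas of the same group differed in how far the 9 genes had moved. The mean deviation of the 9 genes from the naïve mean ranged from -3.09 to -0.55 log2 units at 4 h and from -3.04 to -0.46 at 18 h, against -0.67 to 1.04 in naïve retinas and -0.24 to 0.93 at 2 weeks. At 4 h, replicate 3 was below all naïve retinas in 9 genes and replicate 2 in 8, but replicate 1 in 2. At 18 h, replicate 2 was below all naïve retinas in 8 genes, replicate 4 in 7, and replicate 1 in 2. The lowest mean deviation in each inflamed group belonged to 4 h replicate 2 and 18 h replicate 4. These retinas also had the lowest summed level of 11 rod photoreceptor genes in their groups, 429.8 and 222 RPKM, where the group medians were 2940 and 1266. They likewise had the lowest sums of the 12 identity genes in their groups, 9422 and 11178 RPKM. They also had the fewest genes at an RPKM of 1, 8254 and 6969. Of the 12 identity genes, 3 were called lower than naïve at 4 h, beside 4.39% of all genes. At 18 h 3 were called lower, beside 1.85% of all genes, and 1 higher, beside 374 of 13164 genes. The highest deviations in naïve and 2-week retinas were those of naïve replicate 1 and 2-week replicate 5, whose rod sums of 5180.1 and 5125 RPKM were the highest of their groups. The part of these differences between retinas in the results was not tested. Without the retinas under 7500 genes, Gpr34 fell by 3.53 at 4 h and by 3.45 at 18 h, and the count of genes called lower at 4 h was 5.

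Both experiments were compared within 1 fit. At 4 h Gpr34 fell by 4.60 on the log2 scale in experiment 1 (SE 0.58, adjusted p = 3.5e-06) and by 2.50 in experiment 2 (SE 0.63, adjusted p = 0.031). Cx3cr1 fell by 2.43 in experiment 1 (adjusted p = 0.0039), and the difference in experiment 2 was -1.69 (adjusted p = 0.19). When each experiment was fitted alone, the fall of Cx3cr1 at 4 h passed in both (adjusted p = 0.028 in experiment 1 and 0.0079 in experiment 2). Olfml3 fell by 2.06 in experiment 1 (adjusted p = 0.032), and in experiment 2 its difference was -1.07 (adjusted p = 0.67). The difference between experiments was above 0 for all 9 genes at 4 h, that is, smaller falls in experiment 2. Its median was 0.58 over the 9 genes and -0.19 over all genes. However, 0 of 9 passed the limma test of that difference, against 0.0988% of all genes. Unadjusted p was under 0.05 for 1 of the 9, Gpr34 (difference 2.098, SE 0.86, unadjusted p = 0.021, adjusted p = 0.85). At 18 h experiment 2 held 1 retina. Within experiment 1 the 18 h differences were -4.19 for Gpr34, -2.91 for Siglech and -2.09 for Fcrls, all called, with adjusted p of 9.3e-06, 6.0e-05 and 0.0043. The single retina of experiment 2 gave -2.21, -2.16 and -0.75 for these genes. Naïve retinas of the 2 experiments did not differ by the test in any of the 9 genes, against 1.79% of all genes. The largest such differences were 1.18 for Selplg, 0.74 for Siglech and -0.72 for Fcrls, with adjusted p of 0.41, 0.31 and 0.35.

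**Figure D4:**
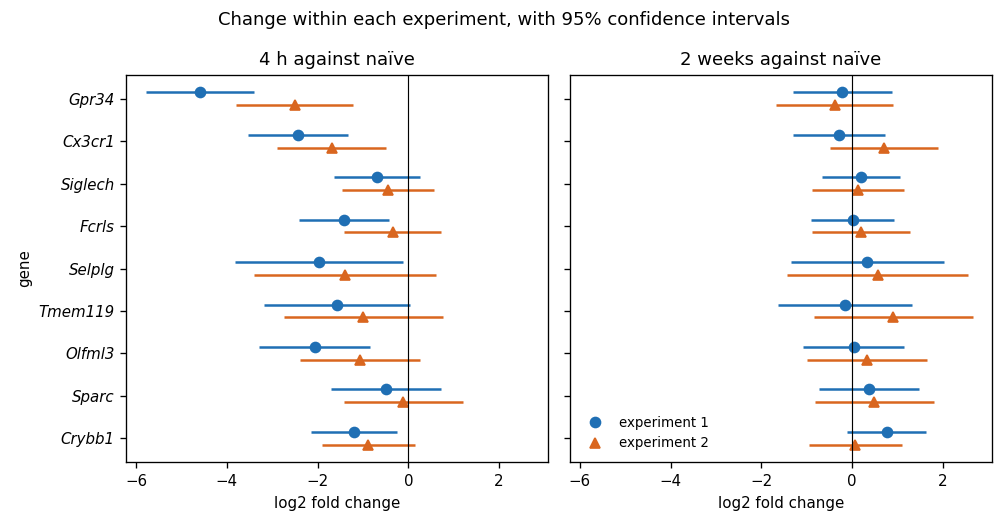
Log2 fold change against naïve retinas of the same experiment at 4 h (left) and 2 weeks (right), with 95% confidence intervals, circles for experiment 1 and triangles for experiment 2. At 4 h every triangle is nearer to 0 than its circle, and at 2 weeks every interval includes 0.

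The 9 genes were set beside 35 other homeostatic microglial genes, a list also chosen with earlier results of these data known. At 4 h, 17 of the 35 were called lower and 0 higher, beside 4.39% of all genes called lower, and the median difference was -1.21 on the log2 scale. At 18 h, 16 were called lower and 0 higher, beside 1.85% of all genes called lower, with a median of -1.33, and at 2 weeks 0 were called, with a median of 0.05. Among the largest called falls at 4 h were those of Sall1 (-2.96), a transcription factor of microglial identity, and P2ry13 (-2.70), a purine receptor. The largest at 18 h were those of Ltc4s (-4.67), which makes leukotriene C4, Slc2a5 (-3.50), a fructose transporter, and P2ry12 (-3.28), the purine receptor that guides microglial processes. Of the 35, 3 were called higher and 4 lower at 18 h than at 4 h, beside 5.42% of all genes called in either direction. The genes named here were picked for a large fall at 1 time, which favours a difference of matching sign between the 2 times. Sall1 was called higher at 18 h than at 4 h, by 1.64, and Ltc4s lower (log2 -2.94, adjusted p = 1.6e-05). The differences of P2ry13 (1.33), Slc2a5 (-1.33) and P2ry12 (-0.92) did not pass the test (adjusted p = 0.36, 0.35 and 0.39).

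For each of the 9 genes the tested gene with the most similar pattern was found as that with the smallest root mean square difference, over the 28 retinas, of log2(RPKM + 1) minus the naïve mean. Gpr34 was most like P2ry12, with a difference of 0.82 log2 units, and Siglech most like Trem2, a lipid receptor of microglia, with 0.55. Cx3cr1 was nearest to Orai3, a calcium channel subunit (0.59), and Sparc to Entpd1, an enzyme that degrades extracellular ATP (0.37). The nearest gene was Lrrc3 for Tmem119 (0.57), Zfp467 for Fcrls (0.55), Serinc3 for Olfml3 (0.51), the lysosomal protease gene Ctsd for Selplg (0.69) and Cars2 for Crybb1 (0.52). Among the 9 genes themselves the closest pairs were Siglech with Sparc (0.69) and Tmem119 with Olfml3 (0.71).

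Markers of other cells were read beside the 9 genes. Siglech is also a gene of plasmacytoid dendritic cells, and of 9 other genes of those cells in the table, 5 were under an RPKM of 1 in every retina, Ccr9 and Ly6d among them. Their summed level had medians of 50.4 RPKM in naïve retinas and 38.4 at 18 h, and Atp1b1 and Cox6a2 had the highest medians over the 28 retinas. Cx3cr1 is also carried by monocytes. The 11 monocyte genes summed to between 0.11 and 5.13 RPKM in naïve retinas and to between 1.13 and 35.5 at 4 h. The sums were 4.28 to 54.2 RPKM at 18 h, and 0.69 to 26.8 after 2 weeks. Over all retinas the highest values in this list were those of Nr4a1 (29.7 RPKM), Plac8 (27.5) and Fn1 (17.0). Treml4 reached 8.82, Itgal 6.03, Ly6c2 4.68, Chil3 1.33 and Ccr2 1.15, and 3 genes stayed under 1 in every retina. Only 2 of the 11 monocyte genes were tested. Against naïve retinas, 1 of the 2 was called higher at 4 h and 1 at 18 h, with median log2 differences of 0.92 and 2.05. None was called against naïve after 2 weeks. At that time 1 was called lower than at 4 h, and 1 lower than at 18 h. The 10 genes of perivascular and other tissue macrophages summed to between 13.6 and 665 RPKM in naïve retinas, 50.3 to 362 at 4 h, 37.4 to 104 at 18 h and 9.69 to 520.4 at 2 weeks, and 0 of the 9 tested were called against naïve at any time. Selplg is widely expressed by leukocytes. The 13 lymphocyte genes summed to at most 81.5 RPKM in any retina and the 12 neutrophil genes to at most 85.2, but 1 gene carried most of each sum, Cd79b with up to 81.3 RPKM and Csf3r with up to 83.0. The lymphocyte sum had its lowest median, 12.6 RPKM, in the 4 h group (range 9.20 to 23.6). Its highest, 56.7 RPKM, was that of the 18 h group (range 36.8 to 66.3). Naïve and 2-week medians were 33.9 and 30.3 RPKM. Of the 2 lymphocyte genes tested, 1 was called higher and 1 lower at 4 h against naïve. None was called against naïve at the later times. The 18 h group had 1 called higher than at 4 h, and the 2-week group 1 higher and 1 lower. Of the 13 lymphocyte genes 5 stayed under an RPKM of 1 in all retinas, Cd3e and Ms4a1 among them. Of the 12 neutrophil genes 5 did so, Ly6g and Ngp among them. Others reached higher levels in the highest retina, such as Klrb1c with 18.4 RPKM, Trac with 11.3 and Cd8a with 9.95. Among neutrophil genes S100a8 reached 9.24 RPKM and S100a9 5.15. The 12 genes of Müller glia and astrocytes summed to between 60.1 and 189 RPKM in naïve retinas (median 149), 50.1 to 152 at 4 h (median 118), 43.2 to 87.8 at 18 h (median 71.7) and 117 to 194 at 2 weeks (median 151). The 18 h retinas were all below the 2-week retinas, and of the 10 genes tested 1 was called lower at 18 h than in naïve retinas and 0 at 4 h or 2 weeks. The part of such cells in the values was not tested.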

How the data were processed

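The members and gene lists were chosen with earlier results of these data known. Per the labels and methods, live tdTomato-high retinal microglia were sorted from 28 single retinas. The authors trimmed the reads, aligned them to mm10 with STAR 2.5.3a and assigned them to Ensembl transcripts by expectation-maximisation in Partek, which can divide reads between genes. The deposited values are RPKM, and the deposited table states alignments per retina (7510000 to 19700000). The other deposited tables hold the authors' own comparisons and were not used. Values near 0 can be products of the estimation, and whether reads were counted by strand is not given in the sources used here.

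RPKM were transformed to log2(RPKM + 1), so that fold changes of low genes are understated. Genes that reached an RPKM of 1 in 5 or more retinas were tested with limma 3.58.1 (R 4.3.3), 1 fit of 4 groups, mean-variance trend and Benjamini-Hochberg adjustment, after a test on simulated data. Named genes were the 9 members, the 3 called genes with the largest falls among 35 homeostatic genes at 4 h and at 18 h, any of them called at 2 weeks, and the nearest pattern of each member; the result of 1 of these genes is not reported here. Coordinates are from GENCODE M21 (GRCm38). Alternatives were other pseudocounts, filters, scalings and covariates, a replicate block, 1 experiment alone and each retina left out. Removal of GC content and length trends, and leaving out retinas with few genes, were chosen after seeing the data.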

Additional observations from a re-analysis of the deposited data

Results flagged for a closer look

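In 3 of 36 sets of retinas (9 genes in 4 groups), 1 retina stood apart from the rest of its group by Dixon's criterion on untransformed RPKM. Chance meets this criterion in about 1 group in 20 where values are normally distributed. RPKM need not be, and the 36 sets share the same retinas, so that the rate may differ here. The criterion was not applied on the log2 scale. Tmem119 was at 1167 RPKM in naïve replicate 1, where the next retina had 293. Cx3cr1 was at 318 RPKM in the same retina, where the next had 115. Tmem119 was at 296 RPKM in 4 h replicate 1, where the next had 109. Naïve replicate 1 also had the most genes at an RPKM of 1 of all retinas (11825). Without it the 2-week difference of Tmem119 from naïve was 0.61 and the 18 h difference of Cx3cr1 was -0.15. Without 4 h replicate 1, Tmem119 differed by -1.71 at 4 h and was called higher at 2 weeks than at 4 h (adjusted p = 0.042).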

How the results depend on the processing

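The falls of Gpr34 at 4 h and 18 h and of Siglech at 18 h kept their direction under all alternatives run, and their calls in every fit without 1 retina; at 18 h Gpr34 lost its call in experiment 2 alone, which held 1 retina. No gene was called at 2 weeks against naïve under any alternative. At 4 h, 5 genes were called after rescaling, after removal of the GC and length trend and without the retinas under 7500 genes, and 1 on untransformed RPKM. Over all genes the count was 1063, and it became 1412, 1117, 1491 and 756 under these. At 18 h, 5 were called after rescaling or trend removal and 1 in experiment 2 alone, while the count over all genes went from 618 to 697, 579 and 165. Rescaling moved the median of all genes from -0.11 to -0.28 at 4 h and from -0.08 to -0.26 at 18 h. Between 18 h and 4 h, 1 was called without a filter, after rescaling, after quantile normalisation, on untransformed RPKM and in experiment 2 alone, and 0 in experiment 1 alone. Between 2 weeks and 4 h, 1 was called in experiment 1 alone. Between 2 weeks and 18 h, 2 were called on untransformed RPKM, with only the groups compared and in experiment 1 alone, and 1 in experiment 2 alone. Without 1 retina, counts ranged from 2 to 4 at 4 h, 3 to 4 at 18 h, 1 to 2 between 18 h and 4 h, 3 to 5 between 2 weeks and 4 h, and 2 to 5 between 2 weeks and 18 h. The causes were not tested.

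Values that were not called changed sign as follows. Crybb1 at 18 h was 0.00016 with a pseudocount of 0.1, 0.062 with experiment as a covariate, 0.27 with the replicate block, 0.29 in experiment 1 alone and -0.20 to 0.077 without 1 retina. Fcrls at 2 weeks was -0.20 with the replicate block, -0.00045 after trend removal and -0.14 to 0.19 without 1 retina. Between 18 h and 4 h, Tmem119 was -0.15 after quantile normalisation, -0.14 on untransformed RPKM and -0.26 to 0.62 without 1 retina. Gpr34 there was 0.41 in experiment 1, 0.29 in experiment 2, 0.07 without the retinas under 7500 genes and -0.79 to 0.19 without 1 retina. Selplg there was 0.22 without those retinas and -1.20 to 0.22 without 1 retina. In experiment 1 alone Tmem119 was -0.15 and Cx3cr1 -0.29 at 2 weeks. Cx3cr1 at 2 weeks was -0.11 to 0.36 and Sparc at 4 h -0.48 to 0.12 without 1 retina. Olfml3 at 18 h was 0.20 in experiment 2 alone.

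Over 34 pairs of samples with the same replicate number in different groups, r of their deviations ranged from -0.33 to 0.70 with a median of 0.04. Over 253 pairs with other numbers it ranged from -0.55 to 0.69 with a median of 0.005. Whether same-numbered samples deviated together was not tested. With the replicate block, 3 genes were called at 4 h and 3 at 18 h. Fcrls was then called at 4 h (-1.29, adjusted p = 0.028) and Olfml3 was not (adjusted p = 0.071).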

Other observations

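The mean deviation of the 9 genes and the summed level of 11 rod photoreceptor genes were lowest in the same retina in naïve retinas (replicate 4), at 4 h (replicate 2) and at 18 h (replicate 4), and highest in the same retina in naïve retinas (replicate 1), at 18 h (replicate 1) and at 2 weeks (replicate 5). The rod sums of these retinas were 290.3, 429.8, 222, 5180.1, 1753 and 5125 RPKM. These lowest retinas also had the lowest sums of the 12 microglia and macrophage identity genes and the fewest genes at an RPKM of 1 in their groups. Among 2-week retinas the lowest mean deviation, -0.24, was that of replicate 3 and the lowest rod sum, 432 RPKM, that of replicate 1. At 4 h the highest rod sum, 4107 RPKM, belonged to replicate 5, whose mean deviation of -1.35 was the third lowest of the group. Naïve replicate 1 and 2-week replicate 5, with the highest mean deviations, had the lowest shares of Gpr34 in the summed RPKM of the 9 genes in their groups, 19.3% and 24.7%.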
